A study of Rattus norvegicus with 6 samples.

Results

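The genes described here are the neuregulins Nrg1, Nrg2, Nrg3 and Nrg4 and the ErbB receptors Egfr, Erbb2, Erbb3 and Erbb4, measured in dorsal root ganglia (DRG) of rats with a chronic constriction injury (CCI) of the sciatic nerve. Members were found by gene symbol in the authors' table of assembled gene rows. Where several rows carried a symbol, the protein-coding row was taken, and then the row with the most counts. Of 8 members, 7 were matched to a row among 43350 rows in all, and Nrg3 was not analysed here.

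The RNA came from lumbar DRG of male Sprague-Dawley rats 11 days after surgery. In the CCI group (n = 3) the sciatic nerve was loosely ligated, and in the sham group (n = 3) the nerve was exposed without ligation, and the labels list no treatment for the latter. The study's methods describe 1 rat per sample and the labels' library protocol speaks of pooled samples, so p-values measure the spread between these samples. Ribosomal RNA was depleted before paired-end sequencing. The labels name no transgene and no drug in either group.

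Neuregulins are growth factors of the EGF family that act on ErbB receptor tyrosine kinases. In peripheral nerve, NRG1 on the axon signals to ErbB2 and ErbB3 on Schwann cells, where ErbB3 binds the ligand but has a weak kinase, and ErbB2 binds no ligand but is an active kinase. This signal is known for its part in Schwann cell survival, the thickness of myelin, and remyelination after nerve injury.

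Total counts lay between 75423546 and 87615743 per library, and 3 counts, the most that a count of 0 allows, corresponded to 0.0342 to 0.0398 CPM (counts scaled to library size). The tissue carried the markers of a ganglion. Tubb3, the neuronal tubulin, was at 2162 ± 174 CPM (SD, n = 3) with sham surgery and 2674 ± 182 CPM with CCI, and Apoe, which satellite glia express, was at 1579 ± 79.4 and 1619 ± 83.5 CPM. All 10 genes of the nerve injury list rose in the CCI group, and their median log2 fold change was 3.66. The study reports these genes as upregulated in the same data, so their rise was known beforehand and is no independent check. At the study's limits, given below, all 10 were called higher, beside 2.57% of all rows tested. Sham 1 and sham 3 held more skeletal muscle RNA than the other libraries, with Acta1, the muscle actin, at 90.3 and 14.1 CPM against 4.21 to 7.27 CPM. Values without sham 1 are given where leaving it out changed a call or a direction.

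On the scale of FPKM (counts per kilobase of row, scaled to library size), which allows genes of different length to be compared, Erbb3 had the highest level of the 7 genes. The mean over the 6 libraries was 20.3 FPKM for Erbb3, 14.0 for Nrg1, 4.72 for Egfr, 2.40 for Erbb2, 1.95 for Nrg2, 1.45 for Erbb4 and 0.136 for Nrg4. Ranges over the libraries were separate between Erbb3 and Nrg1, between Nrg1 and Egfr, between Egfr and Erbb2 and between Erbb4 and Nrg4. The ranges of Erbb2 and Nrg2 overlapped, with Erbb2 above Nrg2 in 3 of 6 libraries. The ranges of Nrg2 and Erbb4 also overlapped, although Nrg2 was above Erbb4 in all 6 libraries. Among the 26663 rows tested, the FPKM level of Erbb3 stood at percentile 91.5, that of Nrg1 at 87.6 and that of Erbb4 at 28.2.

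**Figure D1:**
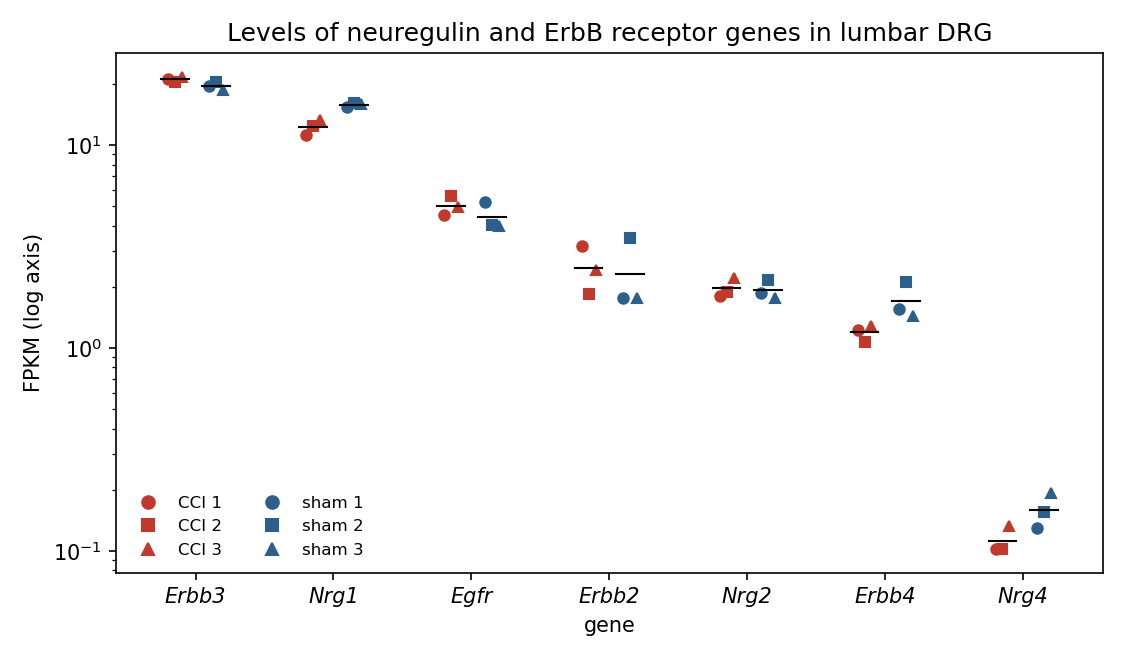
Levels of the 7 matched genes in each library, in FPKM on a log axis. Points are the 3 CCI and 3 sham libraries and horizontal lines are group means. Erbb3 and Nrg1 lie highest, Nrg4 lies near 0.1 FPKM, and the groups separate for Nrg1 and Erbb4.

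Nrg1 made up 84.9% to 89.1% of the summed FPKM of the 3 matched neuregulins, and Erbb3 made up 68.0% to 72.3% of the summed FPKM of the 4 receptors. The ligand and the receptor that bind each other at the axon were thus the most abundant of the matched neuregulins and of the receptors in every library. In bulk tissue, fewer cells of a type and less RNA per cell cannot be told apart in any of these values.

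Counts were compared between the groups with edgeR's quasi-likelihood test over the 26663 rows whose FPKM averaged 0.5 or more. The study's limits for a call were an unadjusted p under 0.05 with a log2 fold change of 0.58 or more in size, and calls by the Benjamini-Hochberg adjusted p, under 0.05, are given beside them. At the study's limits 3.83% of rows were called (2.57% higher and 1.26% lower in the CCI group), and 0.0938% at the adjusted limit. Of the 6 members tested, 0 were called by either rule. By unadjusted p alone, a looser limit that was looked at after the values were known, 10.7% of rows passed (5.18% lower), and so did 2 members, Nrg1 and Erbb4, both with lower values in the CCI group. With DESeq2, 1 member, Nrg1, passed the adjusted limit and fell, and 0 passed the study's limits. DESeq2 called many more rows at the adjusted limit, 432 higher and 319 lower over all rows, against 17 and 8 by edgeR.

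Nrg1, the ligand that axons present to Schwann cells, was measured in a row on the plus strand at chr16:63837216-64064993 of the genome the study calls V101, with 10 assembled transcripts. Nrg1 counts were 13557, 14812 and 14841 in CCI 1, 2 and 3, and 19987, 19029 and 19833 in sham 1, 2 and 3. All 3 CCI libraries were lower than all 3 sham libraries, and the groups did not overlap, as was the case with lower CCI values for 8.7% of the rows tested. Scaled for library size, Nrg1 was at 182 ± 14.1 CPM after CCI and 236 ± 7.14 CPM after sham surgery (SD, n = 3 each), which is 22.9% lower. The log2 fold change of Nrg1 was -0.37 (SE 0.07, 95% interval -0.54 to -0.21; edgeR's quasi-likelihood test, adjusted p = 0.142). The whole interval thus lay inside the study's limit of 0.58. Over 14 alternatives on the Nrg1 row the estimate ranged from -0.43 to -0.32, its unadjusted p was under 0.05 in all 14, and the adjusted p ranged from 0.00205 with DESeq2 to 0.374 without sham 2. Without sham 1, the library with the most muscle RNA, it was -0.40.

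Nrg2, a neuregulin that also binds ErbB3 and ErbB4, was measured at chr18:28835417-29015552 on the minus strand. Nrg2 counts were 571, 591 and 655 in the CCI libraries and 641, 674 and 574 in the sham libraries. The groups overlapped, and CCI 3 and sham 2 were highest after scaling. The log2 fold change of Nrg2 was 0.01 (SE 0.14, 95% interval -0.32 to 0.35; edgeR's quasi-likelihood test, adjusted p = 0.984). The estimate turned to -0.08 without CCI 3, to -0.01 without sham 1 and to -0.04 without sham 3. The interval leaves room for a change of up to 0.802-fold or 1.27-fold, and a p of this size does not show that the levels were equal. Another row, with 85 to 201 counts per library, also carries the symbol Nrg2, and when both were summed the log2 fold change was 0.07.

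Nrg4, a neuregulin that binds ErbB4, was near the limit of detection. Its row, at chr8:59782974-59849490 on the minus strand, held 9, 9 and 11 counts in the CCI libraries and 12, 14 and 17 in the sham libraries. The raw counts of the groups did not overlap, but after scaling CCI 3 (0.144 CPM) lay above sham 1 (0.136 CPM). With a mean of 0.136 FPKM, Nrg4 lay under the filter and was not tested. The row also overlaps Fbxo22 on the opposite strand, a gene with 1163 to 1522 counts per library, and the sources used here do not state whether counting used strand.

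Erbb3, the receptor that binds NRG1 on Schwann cells and satellite glia, was measured at chr7:2989340-3010350 on the minus strand. Erbb3 counts were 20791, 19810 and 19883 in CCI 1 to 3 and 20624, 19886 and 18965 in sham 1 to 3. The groups overlapped, and both were tight, with coefficients of variation of 3.11% and 4.63%. The level of Erbb3 was 254 ± 7.89 CPM after CCI and 238 ± 11 CPM after sham surgery, a log2 fold change of 0.09 (SE 0.06, 95% interval -0.04 to 0.23; edgeR's quasi-likelihood test, adjusted p = 0.640). The interval excludes changes beyond 0.972-fold on the lower side and 1.17-fold on the upper side, the narrowest bounds among the 6 members.

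Erbb2, the kinase partner of ErbB3, was the most variable member. Its row at chr10:86367596-86391728 on the plus strand held 1340, 774 and 953 counts in the CCI libraries and 798, 1444 and 762 in the sham libraries. CCI 1 and sham 2 were high, the other 4 libraries were lower, and the groups overlapped. The coefficient of variation was 26.9% in the CCI group and 42.9% in the sham group. The log2 fold change of Erbb2 was 0.08 (SE 0.33, 95% interval -0.71 to 0.87; edgeR's quasi-likelihood test, adjusted p = 0.961), and it moved from -0.14 without CCI 1 to 0.49 without sham 2, with -0.09 without sham 1 and -0.08 without sham 3. A change as large as the study's limit was not detectable for Erbb2 at this spread.

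Erbb4, a receptor for NRG1 to NRG4 that neurons of the nervous system are known to express, was measured at chr9:75020277-76179638 on the minus strand, the longest row of the members. Erbb4 counts were 690, 591 and 665 in CCI 1, 2 and 3, and 940, 1161 and 832 in sham 1, 2 and 3. All 3 CCI libraries were lower than the 3 sham libraries, and sham 2 was highest. The groups did not overlap, as was the case with lower CCI values for 8.7% of the rows tested. The level of Erbb4 was 8.18 ± 0.751 CPM after CCI and 11.8 ± 2.47 CPM after sham surgery, 30.6% lower. The log2 fold change of Erbb4 was -0.53 (SE 0.17, 95% interval -0.94 to -0.12; edgeR's quasi-likelihood test, adjusted p = 0.349). Erbb4 lay just short of the study's limit of 0.58, and reached it without sham 1 (-0.59) or without sham 3 (-0.63). Without sham 2 the log2 fold change was -0.34, and without CCI 2 it was -0.45 and no longer under the unadjusted limit of 0.05.

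Egfr, the receptor for EGF, TGF-alpha and amphiregulin, was measured at chr14:99919485-100098796 on the plus strand. Egfr counts were 1676, 2048 and 1703 in the CCI libraries and 2091, 1481 and 1519 in the sham libraries. After scaling the groups overlapped, with sham 1 (23.8 CPM) between CCI 3 (22.3 CPM) and CCI 2 (25.4 CPM), while sham 2 and sham 3 were lowest. The log2 fold change of Egfr was 0.17 (SE 0.13, 95% interval -0.15 to 0.49; edgeR's quasi-likelihood test, adjusted p = 0.736), and it was 0.30 without sham 1, where it passed the unadjusted limit of 0.05 and not the adjusted one. A further 3 rows carry the symbol Egfr, and when all were summed the log2 fold change was 0.18.

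**Figure D2:**
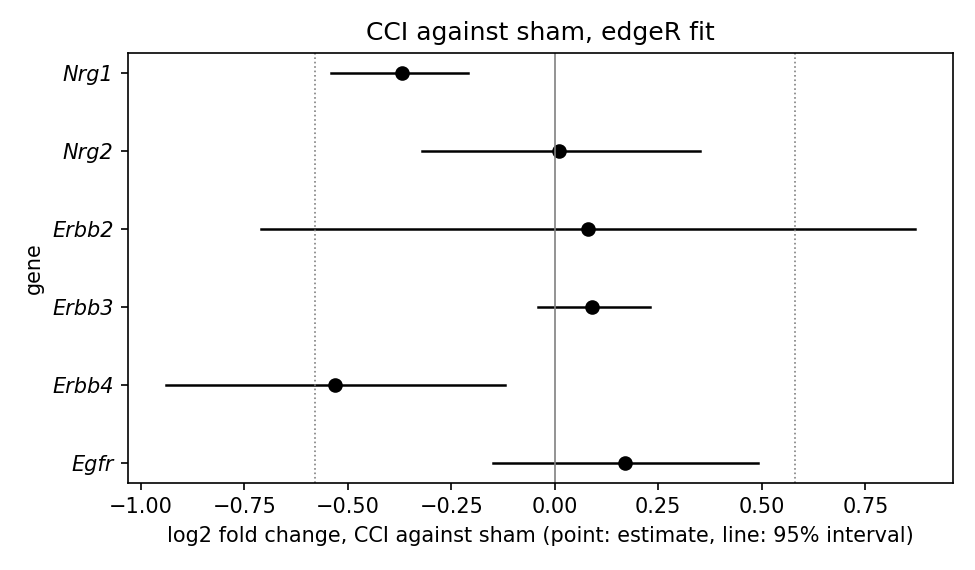
Log2 fold change of the 6 members tested, CCI against sham, with its 95% interval from the edgeR fit. Dotted lines mark the study's limit of 0.58 in each direction. The intervals of Nrg1 and Erbb4 lie below 0, and that of Erbb2 is the widest.

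Rows that overlap a member on the genome numbered 5 and lay at 4 members. They were 2 of the further Egfr rows, a U6 row inside Erbb2, an AABR07067979 snRNA row inside Erbb4 and Fbxo22 at Nrg4. The U6 and AABR07067979 rows held at most 10 counts in a library, and 0 rows overlapped Nrg1.

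The promoters of Erbb4, the receptor with the largest difference, and of Egfr, the receptor with the highest estimate above 0, are shown for comparison. RefSeq promoter windows on GRCr8, from 250 bases before to 50 bases after the start of a gene, were found for 5 members. The printed bases stop where the outermost transcript starts. Each is written 5′ to 3′ on the strand of its gene, and capitals mark a GC box, the letters GGGCGG on the opposite strand.

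Erbb4, GRCr8 chr9:78045634-78045856, minus strand: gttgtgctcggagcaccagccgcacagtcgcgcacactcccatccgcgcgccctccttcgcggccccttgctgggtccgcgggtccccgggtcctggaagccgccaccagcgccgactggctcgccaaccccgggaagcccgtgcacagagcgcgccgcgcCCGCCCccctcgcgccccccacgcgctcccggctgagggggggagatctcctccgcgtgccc
Egfr, GRCr8 chr14:95378376-95378625, plus strand: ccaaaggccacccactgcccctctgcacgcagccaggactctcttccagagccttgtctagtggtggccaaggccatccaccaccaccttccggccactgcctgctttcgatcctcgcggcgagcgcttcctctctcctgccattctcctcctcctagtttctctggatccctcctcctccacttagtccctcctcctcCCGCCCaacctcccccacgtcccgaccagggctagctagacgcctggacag

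Both windows are rich in G and C, at 70.3% for Erbb4 and 64.3% for Egfr against a median of 51.7% over 33469 RefSeq promoters. A GC box on either strand was present in 1 copy in the windows of Erbb4, Egfr, Erbb2 and Nrg2, and in 33.1% of all promoters. The AP-1 site TGACTCA (4.63% of promoters), the cyclic AMP response element TGACGTCA (1.83%) and the E-box CACGTG (6.42%) were looked for on both strands and had 0 matches in the 5 windows. These letters overlap in no match shown here, and a missing match says only that the letters are not in the window.

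Ratios within a library show how the members stood to each other. The FPKM ratio of Nrg1 to Erbb3 was 0.532, 0.610 and 0.609 in CCI 1, 2 and 3 and 0.791, 0.781 and 0.854 in sham 1, 2 and 3. It was lower in all 3 CCI libraries and the groups did not overlap, with means of 0.584 ± 0.0448 and 0.809 ± 0.0393 (SD, n = 3). The ratio of Nrg1 to Nrg2 was 6.26 ± 0.313 in the CCI group and 8.23 ± 0.832 in the sham group, also without overlap. The ratio of Erbb3 to Erbb4 was 17.7 ± 1.14 in the CCI group and 11.7 ± 1.73 in the sham group, again without overlap, and Erbb4 made up 4.0% of the receptor FPKM in the CCI group and 6.04% in the sham group. The ratio of Erbb3 to Erbb2, the receptor partners of Schwann cells, ranged from 5.91 to 11.1 and overlapped between the groups. These ratios were taken after the levels were known and are given as description, without a test.

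The level of Nrg1 was also set beside summed markers of the cells that express it. Per 1000 CPM of 10 pan-sensory neuron markers, Nrg1 was at 19.4 ± 2.19 CPM after CCI and 28.3 ± 1.18 CPM after sham surgery, without overlap. Per 1000 CPM of nociceptor markers it was at 76.0 ± 2.31 and 93.9 ± 5.50 CPM, also without overlap. Per 1000 CPM of large neuron markers it was at 17.3 ± 2.39 and 17.0 ± 1.26 CPM, and the groups overlapped. The sensory neuron markers summed to 9124 to 9775 CPM in the CCI libraries and 7750 to 8866 CPM in the sham libraries, with Tubb3 at a log2 fold change of 0.31 and Snap25 at -0.39. The markers of large neurons, the myelinated cells that carry touch and position sense, were themselves lower, with a summed level of 9708 to 11515 CPM in the CCI group and 13500 to 14609 CPM in the sham group. Among them Pvalb, which fast muscle also expresses, fell at the study's limits, Nefl, the neurofilament light chain, fell at the adjusted limit with a log2 fold change of -0.57, and the list's median was -0.26 over 10 genes. Whether the lower large neuron markers have a part in the lower Nrg1 was not tested.

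**Figure D3:**
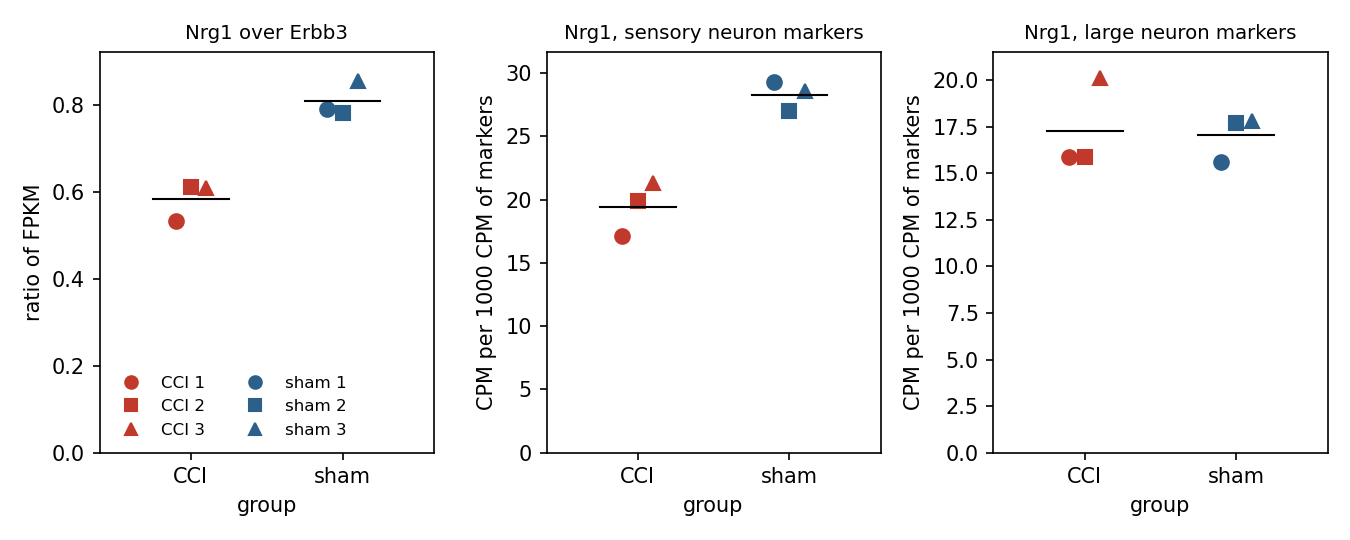
Nrg1 relative to other transcripts in each library: the FPKM ratio of Nrg1 to Erbb3, and Nrg1 in CPM per 1000 CPM of summed sensory neuron markers and of summed large neuron markers. Points are libraries and lines are group means. The groups separate in the first and second panels and overlap in the third.

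Glial markers gave a similar frame for Erbb3. Per 1000 CPM of 15 Schwann cell markers, Erbb3 was at 24.1 ± 2.57 CPM after CCI and 20.6 ± 1.3 CPM after sham surgery, and the groups did not overlap, with CCI 3 (21.7) and sham 3 (21.6) almost level. Per 1000 CPM of satellite glia markers, Erbb3 was at 120 ± 8.02 and 112 ± 2.89 CPM, with overlap. Of the Schwann cell markers 0 of 15 were called (median log2 fold change -0.11), and of the satellite glia markers 0 of 9 tested, with a median of -0.19. Macrophage markers were higher, with 8 of 14 called and a summed level of 377 to 525 CPM in the CCI group against 223 to 259 CPM in the sham group, and skeletal muscle markers were lower, with 6 of 8 called and 54.0 to 63.3 CPM against 74.3 to 479 CPM. Their part in the values of the members was not tested.

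Upstream of the Nrg1 row the table listed 72 rows without a gene symbol, all between Wrn and Nrg1 at chr16:62653691-63716384, with 121 kb between the last of them and Nrg1. These rows were singled out after their values were seen. Of the 72, 70 have no strand, and none overlaps the Nrg1 row. In the opposite direction to Nrg1, 49 of 72 rose at the study's limits and 0 fell. Of all tested rows without a symbol, these 72 included, 3.43% rose. The 72 rows lie in the same region and need not vary independently of each other. At the adjusted limit edgeR's quasi-likelihood test called 0 and DESeq2 called 14, and 49 had an unadjusted p under 0.05. Over all rows, DESeq2 called 432 higher and 319 lower at the adjusted limit. The median log2 fold change of the 72 rows was 0.75, and 70 of 72 estimates were above 0. In 54 rows every CCI library was above every sham library, as in 7.16% of all tested rows without a symbol, these 72 included.

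The summed level of the 72 rows was 515, 337 and 310 CPM in CCI 1, 2 and 3 and 217, 233 and 246 CPM in sham 1, 2 and 3. All 3 CCI libraries were above the sham libraries, CCI 1 stood well above the rest, and in 58 rows it exceeded CCI 2 and CCI 3. Relative to the counts of the Nrg1 row, the 72 rows together held 3.09, 1.83 and 1.59 times as many counts in CCI 1, 2 and 3 and 0.955, 0.970 and 1.02 times in sham 1, 2 and 3. Without CCI 1, 12 of 72 were called and the median was 0.52, without sham 1, 22 were called, and without sham 2, 27 were called, with 0 lower each time. When the counts of these rows were added to those of the Nrg1 row, the log2 fold change turned from -0.37 to 0.28 (edgeR's quasi-likelihood test, adjusted p = 0.485). RefSeq lists 5 genes between Wrn and Nrg1 on GRCr8, of which 1 is protein-coding, and whether any of the 72 rows is part of Nrg1 was not tested.

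**Figure D4:**
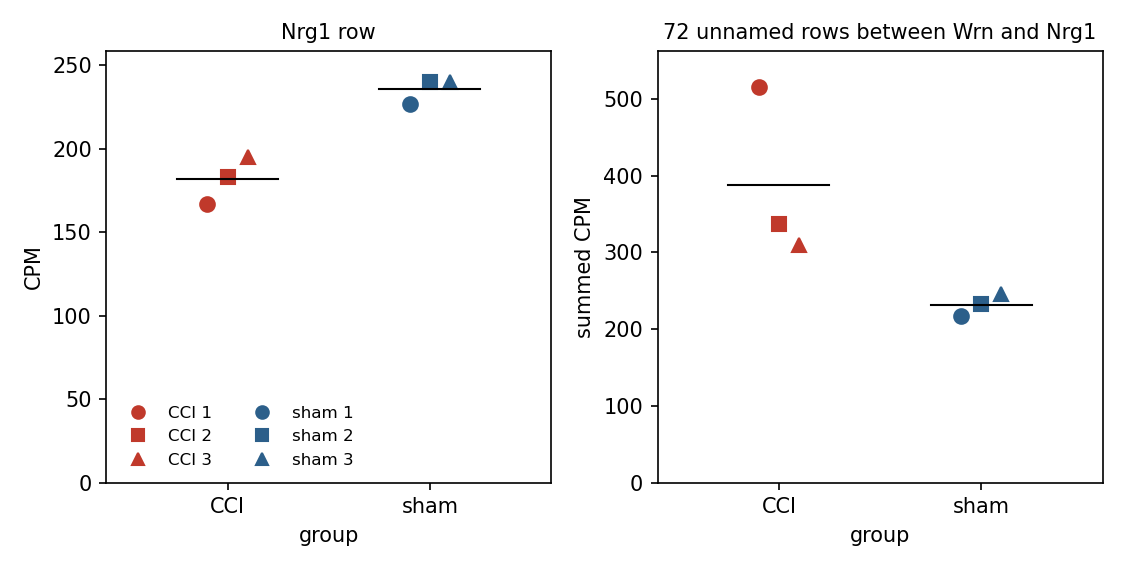
CPM of the Nrg1 row (left) and summed CPM of the 72 rows without a symbol between Wrn and Nrg1 (right) in each library. Points are libraries and lines are group means. The CCI libraries are lower than the sham libraries on the left and higher on the right, with CCI 1 at 515 CPM.

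The genes around the receptors were described through 6 lists with 104 tested rows, and 0 of these were called at the study's limits or at the adjusted limit. By unadjusted p alone 10 had higher and 9 had lower values in the CCI group, 18.3% of the 104 together, beside 10.7% of all rows (5.57% higher and 5.18% lower). These shares come from rows of unlike precision. The median SE was 0.18 over all rows tested and 0.11 over protein-coding rows with a symbol, as most rows of the lists are. In 103 of the 104 the log2 fold change was under 0.58 in size. The exception was Crk, an adaptor of the signalling core, at -0.61 with an adjusted p = 0.530 in the edgeR fit. Crk was at 161 and 143 CPM in sham 1 and sham 3, and at 69.7 to 85.4 CPM in sham 2 and the CCI libraries.

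Among the other EGF family ligands, 3 of 7 were tested and 0 had a p under 0.05. Btc (betacellulin) was at 2.10 ± 0.233 CPM after CCI and 1.56 ± 0.371 CPM after sham surgery, a log2 fold change of 0.43 (SE 0.24). Hbegf and Tgfa, ligands of the EGF receptor, had log2 fold changes of -0.17 (SE 0.09) and -0.12 (SE 0.10). Areg, which encodes amphiregulin, held 4, 8 and 12 counts in the CCI libraries and 0 in each sham library. These counts are few, the row was under the filter, and in the fit without a filter Areg was called higher.

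The 17 genes that process neuregulins, among them the sheddases and the gamma-secretase subunits, lay close to 0. Adam19, a metalloprotease that sheds neuregulins, was at 301 ± 34.0 CPM after CCI and 258 ± 3.8 CPM after sham surgery, and was the 1 gene of this list with an unadjusted p under 0.05 (log2 fold change 0.22, adjusted p = 0.423). CCI 1 was highest, at 339 CPM. Aph1a, a gamma-secretase subunit, and Rhbdf2 followed at 0.15 (SE 0.08) and 0.26 (SE 0.15). Bace1, the secretase that cleaves NRG1 on axons, had a log2 fold change of 0.15 (SE 0.22) and a spread set by CCI 3, at 105 CPM against 57.0 to 69.5 CPM in the other libraries.

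Among 19 tested negative regulators of ErbB receptors, 2 had lower values with p under 0.05. Usp8, a deubiquitinase that acts on ErbB receptor trafficking, was at 139 ± 2.60 CPM after CCI and 156 ± 5.45 CPM after sham surgery, and Spry4, a feedback inhibitor of receptor tyrosine kinases, was at 24.9 ± 1.85 and 32.3 ± 6.21 CPM. Lrig2 was lower without reaching that p, with a log2 fold change of -0.12 (SE 0.06). The list's median was 0.02, beside 0.01 over all rows tested.

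Of 10 tested scaffolds and partners, Cd44, a hyaluronan receptor and ErbB co-receptor, had a log2 fold change of 0.49 (SE 0.13) and Itgb4, the beta subunit of a laminin receptor of Schwann cells, 0.23 (SE 0.06). Cd44 was at 371, 281 and 264 CPM in CCI 1, 2 and 3 and 219, 224 and 209 CPM in the sham libraries, and CCI 1 was highest. Cpne3, which binds ErbB2, was lower at -0.16 (SE 0.06). By edgeR's quasi-likelihood test all 3 passed the unadjusted limit of 0.05, and the adjusted p of Cd44 was 0.263. Macrophages are among the cells that express Cd44, and the macrophage markers given above were higher in the CCI group. Whether they have a part in the Cd44 values was not tested.

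The signalling core held 39 tested genes of the Ras and MAP kinase, PI3 kinase and STAT branches, with a median log2 fold change of 0.04. Higher values with p under 0.05 were found for 6 and lower values for 3. Stat5b, a transcription factor that cytokine and growth factor receptors activate, was at 102, 85.2 and 76.6 CPM in CCI 1, 2 and 3 and 65.5, 64.2 and 67.5 CPM in sham 1, 2 and 3. The log2 fold change of Stat5b was 0.42 (SE 0.11; edgeR's quasi-likelihood test, adjusted p = 0.255). Pik3ca, a catalytic subunit of PI3 kinase, and Jak2, the kinase upstream of STAT5, had log2 fold changes of 0.36 (SE 0.10) and 0.40 (SE 0.13). The 3 lower genes were Pik3cb, another catalytic subunit of PI3 kinase, at -0.18 (SE 0.06), Sos1 at -0.13 (SE 0.05) and Pak1 at -0.35 (SE 0.14). CCI 1 was the highest library for Stat5b, Pik3ca and Jak2. Akt1 and Akt2, kinases that act downstream of PI3 kinase, had log2 fold changes of 0.13 (SE 0.05), with an unadjusted p under 0.05, and -0.01 (SE 0.07).

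The programme that NRG1 and ErbB signalling is known to drive in Schwann cells and at synapses held 16 tested genes, 13 of them with an estimate below 0, and its median log2 fold change was -0.15. The ETS factors Etv1, Etv4 and Etv5, which act downstream of growth factor signals and of which Etv1 also marks large sensory neurons, all had lower values with p under 0.05. Etv1 was at 144, 161 and 160 CPM in the CCI libraries and 211, 194 and 205 CPM in the sham libraries, without overlap, and its log2 fold change was -0.39 (SE 0.07; edgeR's quasi-likelihood test, adjusted p = 0.114). Pou3f1, which promotes the onset of myelination, was at 3.93 ± 0.553 CPM against 2.68 ± 0.304 CPM, a log2 fold change of 0.55 (SE 0.18). The row that carries the symbol Pou3f1 is labelled a pseudogene. Egr2, the master regulator of myelin genes, was at 31.1, 18.9 and 19.6 CPM in CCI 1, 2 and 3 and 17.5, 17.2 and 16 CPM in the sham libraries, so that the groups did not overlap and CCI 1 stood well above the rest. Pmp22 and Mbp, structural genes of myelin, had log2 fold changes of -0.14 (SE 0.10) and -0.05 (SE 0.13). Chrna1, a subunit of the muscle acetylcholine receptor, lay under the filter at 1.28 ± 0.436 CPM after CCI and 0.174 ± 0.170 CPM after sham surgery.

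**Figure D5:**
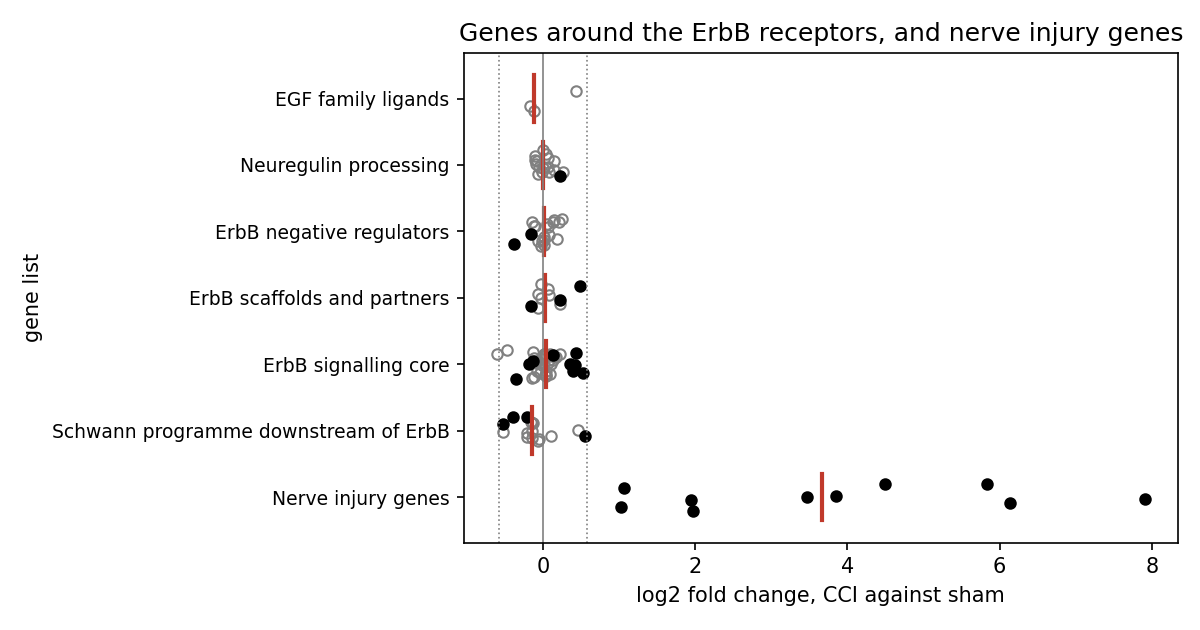
Log2 fold changes of the tested genes of 6 lists around the ErbB receptors and, for scale, of the nerve injury list. The study reports the genes of the latter as upregulated in these data. Each circle is a gene, filled where the unadjusted p was under 0.05, red bars are list medians and dotted lines the study's limit of 0.58. The 6 lists centre near 0, while the 10 nerve injury genes lie above 1.

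The genes whose levels over the 6 libraries were most like those of a member were found by the correlation of log2(CPM + 0.5) among 10393 protein-coding rows. These correlations hold both groups together, are taken over 6 libraries and were the highest of many, so they describe likeness alone. For Nrg1 they were Cdr2l (r = 0.9995), Lrrk2 (0.9979) and Ralgapa2 (0.9950), each lower in all 3 CCI libraries. Lrrk2 was at 77.2, 84.7 and 89.5 CPM in CCI 1, 2 and 3 and 110, 117 and 117 CPM in sham 1, 2 and 3. For Erbb3 they were Tns3, Kif3a and Eef1e1, and for Erbb4 they were Zxdc, Adck1 and Kpna4. For Erbb2, Ctsz (r = 0.9849) was highest in sham 2 and CCI 1 as Erbb2 was, followed by Supt20h and Mthfd2. For Egfr they were Bmp5, Ikbke and Fmnl3, and for Nrg2 they were Lrrtm4, Tmem233 and Degs1.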

How the data were processed

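The deposited table gives, for 43350 assembled gene rows, whole read counts and FPKM values per sample. The authors made the count values with HISAT2 2.0 and StringTie 1.3.0, as the submitters' processing notes name them, on a rat genome they call V101, and did not normalize them. The FPKM values, also deposited by the authors, are those counts per kilobase of row and per library size, with a count of 0 listed at 0.0001. Whether counting used strand is not given in the sources used here. Members and gene lists were chosen with earlier results of these data known.

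Rows were kept where FPKM averaged 0.5 or more over the samples, and these 26663 were fitted with edgeR 4.0.16 (quasi-likelihood test, TMM factors of 0.988 to 1.01, trended prior) in R 4.3.3. Calls were made at an unadjusted p under 0.05 with a log2 fold change of 0.58 or more in size, the limits of the study, and at a Benjamini-Hochberg adjusted p under 0.05. CPM used the TMM factors, and FPKM served for levels between genes. Replicates within a group correlated at r = 0.977 to 0.98 and differed beyond sampling noise (chi-square per degree of freedom 57.4 to 84.3). Counting error alone is small at these depths, and the intervals given are those of the fit. Between 5.37% and 5.72% of a library's counts fell on rows without a symbol, which were kept in.

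Alternatives were DESeq2 1.42.0, its size factors, limma 3.58.1 on log2(FPKM + 0.1) and log2(FPKM + 1), other filters, protein-coding rows alone, a replicate block and leaving out each library. After seeing the data, summing the rows of a symbol and counting the rows without a symbol with Nrg1 were added. Named were the members, the 3 genes of lowest p in each list (unless called), the 3 genes most like each member with a mean of at least 5 CPM, called and most abundant markers, and overlapping rows. Other genes were named after their values were seen. The fits were tested on simulated counts. Python 3.11.15 with pandas 2.3.3, numpy 2.4.6, scipy 1.17.1 and matplotlib 3.10.9 was used. No value column was left out. Some items of the lists are not reported here.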

Additional observations from a re-analysis of the deposited data

How the results depend on the processing

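Of the members, Nrg1 and Erbb4 stayed below 0 and Egfr and Erbb3 above 0 under all 14 alternatives run on their rows. Of the 6 members, 1 was called lower at the study's limits without sham 1 or sham 3 (Erbb4), against 0 to 1 over the fits that leave out a library, and 1 was called lower at the adjusted limit with DESeq2 (Nrg1). By unadjusted p, 2 members were lower, and 1 under limma with either pseudocount, under the block, without CCI 2, or with the rows without a symbol counted with Nrg1, and 1 (Egfr) was higher without sham 1. Erbb4 was at -0.46 with limma on log2(FPKM + 0.1), at -0.29 on log2(FPKM + 1) and at -0.51 with the replicate block, with an unadjusted p over 0.05 each time, and between -0.63 and -0.34 when a library was left out. Egfr ranged from 0.08 to 0.30. Erbb2 turned to -0.14 without CCI 1, -0.09 without sham 1 and -0.08 without sham 3, with 0.49 as its highest value, and Nrg2 turned to -0.08 without CCI 3, -0.01 without sham 1 and -0.04 without sham 3, with 0.10 as its highest. Nrg1 turned to 0.28 with the rows without a symbol added. Of those 72 rows, 49 were called higher, with 31 under the replicate block, 35 by limma on log2(FPKM + 0.1) and 12 to 46 when a library was left out. The cause was not tested for any of these.

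In the pathway lists, higher calls at the study's limits went from 0 to 2 without a filter (Areg, Chrna1) and to 0 to 2 when a library was left out (Egr2 and Pou3f1 without CCI 2, Cd44 without CCI 3, Plcg2 and Pou3f1 without sham 1, Plcg2 without sham 2), and lower calls to 1 with DESeq2 (Crk) and 0 to 2 when a library was left out (Nab2 without CCI 1, Shc3 and Etv4 without CCI 2, Crk without sham 2). DESeq2 called 2 higher (Cd44, Stat5b) and 1 lower (Etv1) at the adjusted limit, and leaving out a library called 0 to 1 lower (Crk, without sham 2). Over all rows, 686 were called higher and 336 lower at the study's limits, with 410 and 161 by limma on log2(FPKM + 1) and 328 and 113 among protein-coding rows. At the adjusted limit 17 were higher and 8 lower, with 432 and 319 by DESeq2, 36 and 35 among protein-coding rows, 5 lower by limma on log2(FPKM + 0.1), 0 and 0 with the replicate block, and 3 to 40 higher and 3 to 21 lower when a library was left out. The remaining 348 of 401 comparisons with an alternative kept their side of the threshold, their count within 1.5 times or their value within the spread between replicates, and among them the differences in mean log2 FPKM of Erbb2 and Nrg2 crossed 0 when some libraries were left out. Replicate numbers appear in both groups, and deviations of same-numbered samples correlated at -0.011, -0.026 and -0.075. Samples of unlike number correlated at -0.022 to 0.049. No pairing was seen in these values, which are few and cannot exclude a factor that same-numbered samples share.

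Depth limited Nrg4 alone among the members, and the spread between libraries limited Erbb2. Whether the muscle RNA of sham 1 and sham 3 bears on a member was not tested beyond leaving each library out. The genome build of the coordinates could not be set beside GRCr8, so RefSeq served for names, neighbours and promoters alone.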
